A study of Brassica napus with 112 samples.

Results

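The 100 genes described here were those that heat raised most consistently in rapeseed siliques, the pods whose green walls enclose and feed the developing seeds. They were chosen from 101040 genes by their heat response itself. In the 56 silique libraries, 17809 genes had a mean deposited value of at least 10. Of these, 388 were higher under heat than in the control in all 8 combinations of hybrid, sampling time and season, on the scale of log2(value + 0.5). The 388 were ranked by the mean of their 8 differences, and the 100 largest were kept. Their heat difference in siliques is therefore a description and was not tested.

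The libraries came from field plots of Lumen and Solar, which are spring rapeseed hybrids, sampled at 7 and 14 days after flowering (DAF) in 2 growing seasons. Heated plots were covered with polyethylene film and kept about 5 °C above ambient from the start of flowering until 15 DAF, and control plots were left unmanipulated, so that "heat" stands for the whole treatment and a sample at 14 DAF had also been heated for longer than one at 7 DAF. Each library pooled 5 plants of a plot with 25 siliques per plant, and siliques and seeds may have come from the same plots. Each tissue had 16 conditions, represented by 3 libraries apiece in season 1 and by 4 in season 2. Heat was applied to main plots in season 1, and the field design names 3 replicates in both seasons, so p-values, which treat libraries as independent, describe the spread between libraries.

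A plant cell that is heated makes chaperones, proteins that keep other proteins folded, under the control of heat shock transcription factors, and it also changes its sugar metabolism and its defences against reactive oxygen. In the weeks after flowering the pod wall grows and photosynthesises while the seeds inside it begin to fill, so a response to heat in siliques is laid over a programme of development. The identifiers of the table carry no gene names or products, and 7 of the 100 genes could be given a function term, from the study's own enrichment table. Those 7 were named after their values had been seen.

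The deposited values are whole numbers that add up to between 890194 and 1658548 per library, and depth cannot be read from them. The study reports its read numbers, but these were not used here. The spread between replicate libraries is the error given throughout. Libraries of one tissue resembled each other more (median r = 0.863 over 5000 genes) than libraries of different tissues (median r = 0.618), but the tissue labels could not be checked against marker genes. A pair of seed libraries stood apart. In replicate 1 of Solar control seeds at 14 DAF in season 1, the 10 most abundant genes took 33.5% of the sum against a median of 5.23% in seeds. In replicate 4 of heated Lumen seeds at 7 DAF in season 2, 66990 genes had a value of 0, where the median seed library had 47897. Silique libraries varied too. At 14 DAF of season 1 the 10 most abundant genes took 10.7% in Solar control replicate 2 and 8.48% in Lumen control replicate 3 (silique median 3.58%). Heated Lumen siliques at 7 DAF of season 2 had 50132 and 50803 genes at 0 in replicates 1 and 3 (silique median 46495). No silique fit left out these libraries alone. In bulk tissue, more cells of a type and more RNA per cell cannot be told apart.

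In siliques the mean of the 8 heat differences ran from 0.48 to 1.59 (log2), a fold of 1.40 to 3.02, with a median of 0.68. It was at least 1 for 21 genes, between 0.5 and 1 for 71 and under 0.5 for 8. The last genes inside the list, at ranks 99 and 100, had 0.486 and 0.485, and the first ones outside had 0.482 and 0.478. A consistent direction did not mean an even size. Within a gene the smallest of the 8 differences had a median of 0.13 and the largest a median of 1.46. Solar at 7 DAF in season 2 gave the largest median over the genes, 0.86, and Lumen at 14 DAF in season 1 the smallest, 0.42. Most members were moderately expressed, with mean values of 10 to 831 (median 30.1), and 95 were above 0 in all 56 silique libraries.

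**Figure D1:**
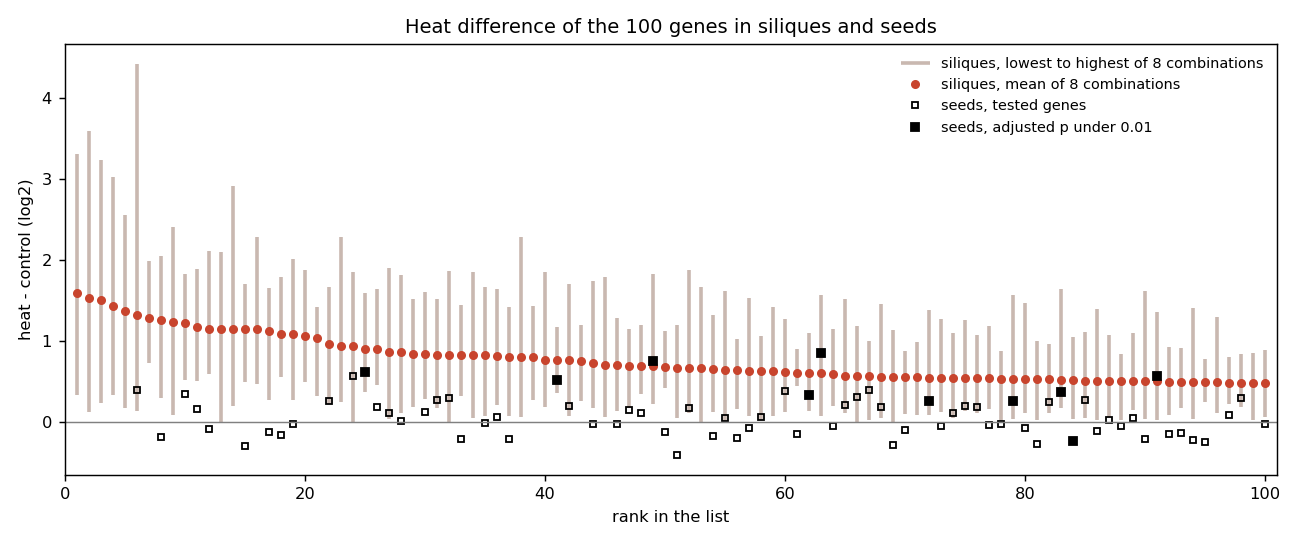
Heat minus control (log2) of the 100 genes by rank. Red points give the mean of the 8 silique combinations, falling from 1.59 to 0.48, and bars the lowest and highest of the 8. Squares give the change in seeds for the 75 genes tested there, filled for the 10 past the threshold, and lie around 0 along the whole list.

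The leading gene, BnaC04g25560D on chromosome C4, had values of 0 to 66 with a median of 5 in the 28 control silique libraries and of 1 to 117 with a median of 20 in the 28 heated ones. The treatments overlapped over most of their range. Its difference, 1.59 on average, was clearest in Solar at 14 DAF in season 2, where the 4 controls read 6, 3, 18 and 5 and the 4 heated libraries 69, 49, 117 and 55. All heated libraries lay above all controls in 2 of the 8 combinations. The gene was nearly silent in seeds, at 0 or 1 in all 56 libraries.

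The gene at rank 2, BnaCnng41750D on an unplaced part of the C subgenome, had control values of 0 to 64 (median 7) and heated values of 3 to 155 (median 29.5), with a mean difference of 1.53. It responded unevenly. In Solar at 7 DAF of season 2 the controls read 1, 0, 2 and 3 and the heated libraries 18, 18, 6 and 61, whereas in Solar at 7 DAF of season 1 the controls read 27, 30 and 11 and the heated ones 31, 29 and 13. The groups were apart in the first case and overlapped in the second, and the lowest of its 8 differences was 0.13. It was listed at 0 in all 56 seed libraries. BnaC01g41460D, at rank 6, held the largest single difference of the list, 4.42, in Lumen at 14 DAF of season 2, where the controls read 5, 9, 12 and 9 and the heated libraries 222, 184, 131 and 241.

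Averaged over the 100 genes, each heated condition lay above its control, as the rule required. In Lumen siliques of season 1 the mean log2 level was 3.67 ± 0.08 (SD, n = 3) at 7 DAF in the control and 4.51 ± 0.33 (SD, n = 3) under heat, and at 14 DAF it was 4.48 ± 0.15 (SD, n = 3) and 4.97 ± 0.20 (SD, n = 3). In Lumen of season 2 the levels at 14 DAF were 4.94 ± 0.22 (SD, n = 4) in the control and 5.92 ± 0.17 (SD, n = 4) under heat. Heated Lumen siliques at 7 DAF of season 2 had 4.89 ± 0.09 (SD, n = 4). In both seasons heated Lumen siliques at 7 DAF were thus near the level of the controls a week older. The heated values took part in the choice of the genes, so this is a description. Gene by gene, 48 of the 100 were higher in heated Lumen at 7 DAF than in control Lumen at 14 DAF in season 1, and 50 in season 2. In Solar these numbers were 68 and 80. No share over all genes is given beside them.

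**Figure D2:**
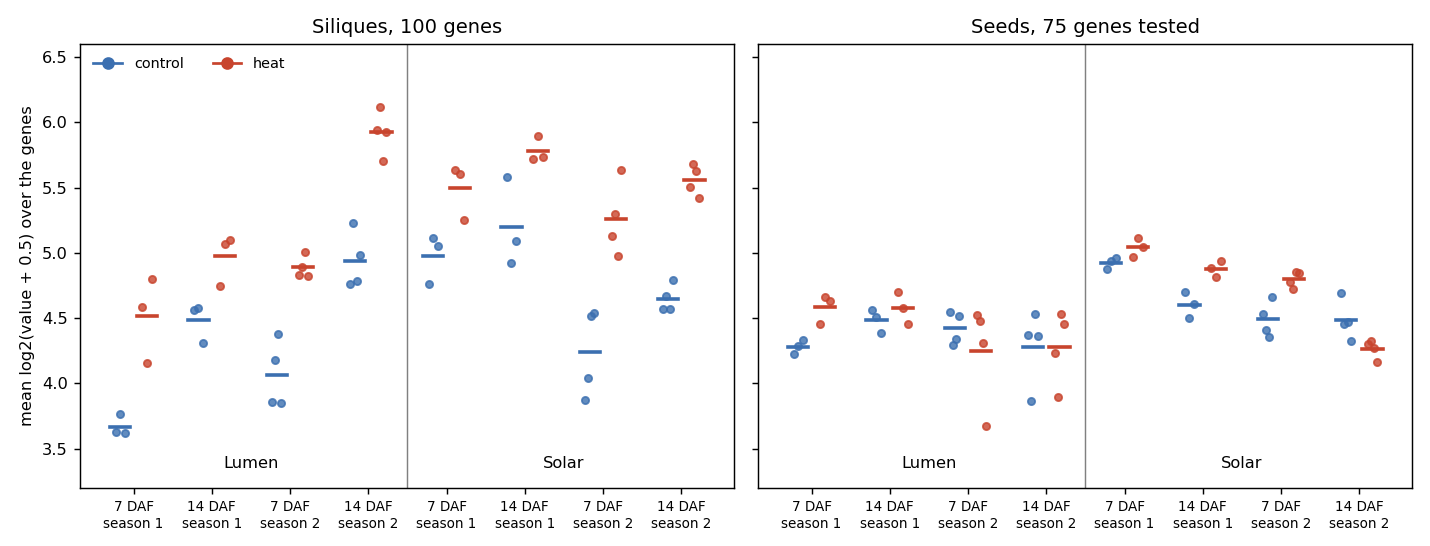
Mean log2(value + 0.5) in each library (points) and condition (bars), for the 100 genes in siliques (left) and the 75 tested in seeds (right). In siliques the heated libraries lie above the controls of their condition on average, with means of 3.67 to 5.20 in controls and 4.51 to 5.92 under heat. In seeds the treatments overlap in Lumen except at 7 DAF of season 1, where heat lies above control. In Solar they are apart, with heat above control except at 14 DAF of season 2, where it lies just below.

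Most of these genes changed from 7 to 14 DAF in the same direction as under heat. Age, sampling date and, in heated plots, length of treatment changed together here, and their parts were not tested. The comparison of 14 with 7 DAF sets the same silique libraries against each other along a factor balanced between heated and control plots. With limma and Benjamini-Hochberg adjustment over all genes at an adjusted p under 0.01, 61 of the 100 genes rose from 7 to 14 DAF, 6 fell and 33 did not pass. Among all genes tested in siliques 17.2% rose and 17.1% fell, and among the 388 genes raised by heat in 8 of 8 combinations 37.4% rose and 13.4% fell. The median age change of the list was 0.56 (log2), against 0.02 over all genes tested. In control siliques alone, 83 and 80 of the 100 genes were higher at 14 than at 7 DAF in Lumen in seasons 1 and 2, and 63 and 63 in Solar. No share over all genes is given for these control counts.

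The largest rise with age was that of BnaA03g19400D on chromosome A3 (rank 24). Its silique values were 1 to 35 with a median of 7.5 at 7 DAF and 10 to 94 with a median of 41 at 14 DAF, a change of 2.59 ± 0.18 (SE, n = 28 per age, limma adjusted p = 5.45e-15). BnaC04g25560D, the leading heat gene, came next, from a median of 4 (0 to 35) to one of 24.5 (3 to 117), a change of 2.38 ± 0.27 (SE, limma adjusted p = 8.86e-10). Both genes were low in young pods, with some overlap between the ages. In the other direction BnaCnng10870D (rank 81) went from a median of 51.5 (14 to 125) to one of 33 (8 to 60), a change of -0.73 ± 0.14 (SE, limma adjusted p = 2.16e-05). BnaC02g38230D on chromosome C2 (rank 30) went from a median of 41.5 (13 to 97) to one of 21 (4 to 160), a change of -0.71 ± 0.16 (SE, limma adjusted p = 0.000315). The ages overlapped widely for these genes that fell, and the latter missed the threshold without replicate 3 (adjusted p = 0.0171).

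The change with age was larger in Lumen than in Solar. In Lumen siliques 63 of the 100 genes rose and 2 fell, where 13.2% of all genes tested rose and 13.3% fell. In Solar siliques 28 rose and 7 fell, where 9.23% and 8.84% of all genes did. The median change was 0.82 in Lumen and 0.25 in Solar, and 83 of the genes had the larger change in Lumen. A total of 25 genes rose in both hybrids and 3 rose in Lumen and fell in Solar. The difference itself passed the interaction test for 24 genes with the larger change in Lumen and for 1 with the larger change in Solar. The background was 1.87% and 3.2% of all genes tested, and 10.6% and 6.44% of the 388. With fewer libraries the interaction was called less often, with 13 genes without replicate 1, 6 without replicate 2 and 15 without replicate 4.

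**Figure D3:**
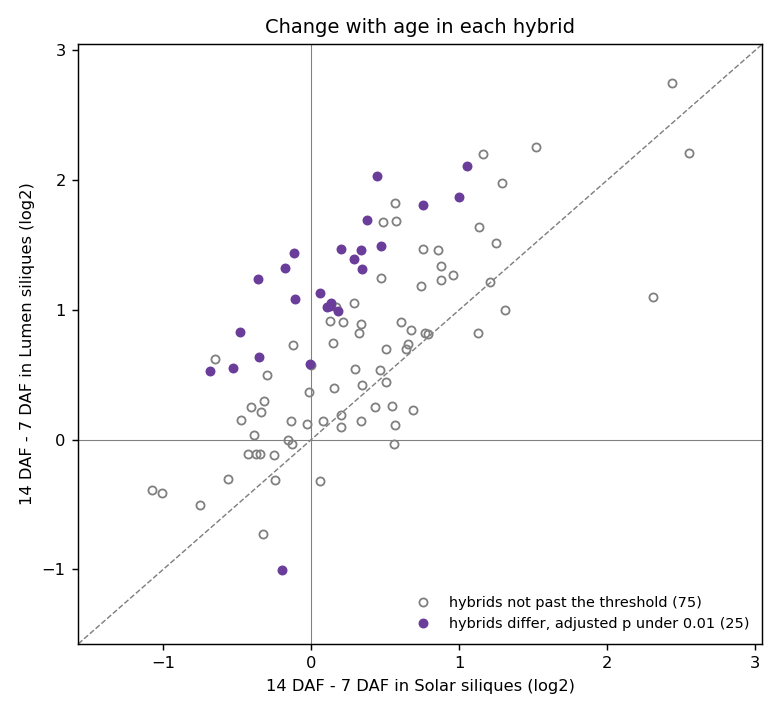
Change from 7 to 14 DAF (log2) of the 100 genes in Solar siliques (horizontal) and Lumen siliques (vertical), with the line of equal change dashed. Filled points are the 25 genes whose change differed between the hybrids, 24 of them above the line, and 83 genes in all had the larger change in Lumen.

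BnaC01g15060D on chromosome C1 (rank 33), which the study lists under vitamin binding, had the largest such difference, 1.60 ± 0.18 (SE, limma adjusted p = 2.85e-08). In control siliques of Lumen it read 111, 134 and 124 at 7 DAF and 323, 318 and 298 at 14 DAF of season 1. In those of Solar it read 489, 483 and 501 at 7 DAF and 281, 135 and 321 at 14 DAF. The ages were separate in both hybrids and in opposite order. In season 2 the Solar controls were not in that order, with 173, 153, 158 and 225 at 7 DAF and 260, 274, 172 and 279 at 14 DAF, while the Lumen controls again rose apart, from 119, 116, 164 and 156 to 389, 415, 423 and 383. BnaC06g18870D (rank 56), listed under small molecule metabolic process, behaved likewise, with a rise of 0.53 ± 0.14 in Lumen (SE, limma adjusted p = 0.0031) and a change of -0.68 ± 0.14 in Solar (SE, limma adjusted p = 0.00029). The gene with the opposite interaction was BnaC05g11220D on chromosome C5 (rank 76), named after its values were seen. It fell with age by 1.00 in Lumen, and the difference between the hybrids was -0.81 ± 0.19 (SE, limma adjusted p = 0.00414).

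Over both seasons the list stood lower in Lumen siliques than in Solar siliques. By the same test 52 genes were lower in Lumen, 3 were higher and 45 did not pass, against 18.9% lower and 17.9% higher among all genes tested and 34% and 11.9% among the 388. The median of Lumen minus Solar was -0.40 (log2), against -0.01 over all genes tested. The difference depended on the season. In season 1, 68 genes were lower in Lumen and 1 was higher (background 16.2% and 14.7%). In season 2, 21 were lower and 13 higher (background 13% and 13.2%). The comparison of the seasons within the fit, added after the data had been seen, passed the threshold for 45 genes, all in the direction of a relatively higher Lumen in season 2, where 2.72% of all genes tested passed in that direction and 1.73% in the other. Among the 388 genes these shares were 19.6% and 0.258%. The number was 22 without replicate 1 and 20 without replicate 2, again with no gene in the other direction.

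The size of the season effect was visible in each condition. In season 1 the median of Lumen minus Solar was -1.18 in controls at 7 DAF and -1.05 under heat, then -0.66 and -0.68 at 14 DAF. In season 2 it was -0.18 and -0.37 at 7 DAF and 0.37 and 0.40 at 14 DAF. Of the 45 genes, 44 were below 0 in season 1 and 33 above 0 in season 2. BnaCnng41750D, at rank 2, turned from -1.55 ± 0.34 in season 1 (SE, limma adjusted p = 0.000228) to 1.73 ± 0.29 in season 2 (SE, limma adjusted p = 5.01e-06). Year, weather and plot layout changed together between the seasons and cannot be told apart. By the study's records Lumen was also sampled before Solar, by more days in season 1 than in season 2. Its plots were cooler on average over the heating period, again by more in season 1. Hybrid and sampling date therefore cannot be told apart within a season.

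**Figure D4:**
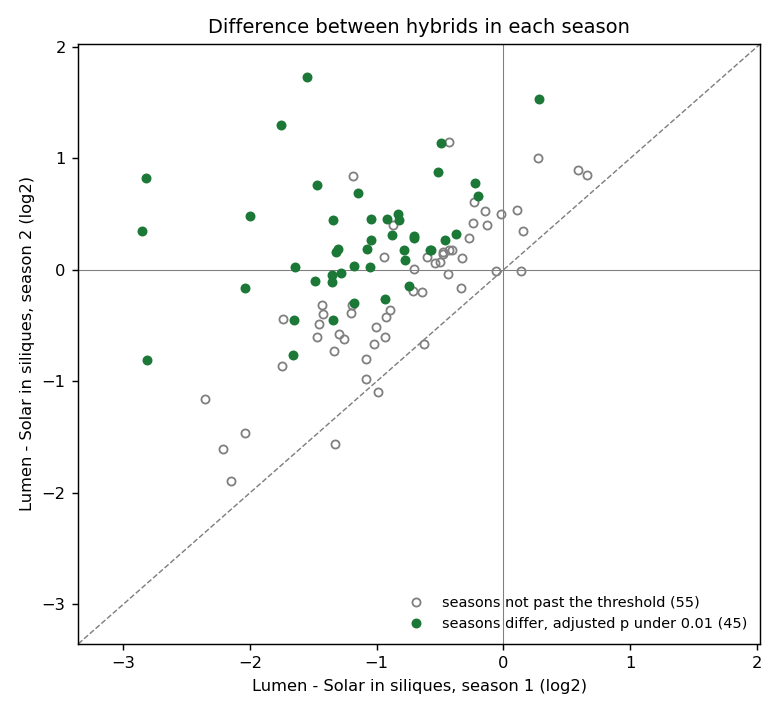
Lumen minus Solar (log2) of the 100 genes in siliques of season 1 (horizontal) and season 2 (vertical), with the line of equal difference dashed. Filled points are the 45 genes whose difference changed between the seasons, all above the line, and 44 of them lie left of 0.

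Some genes kept the hybrid difference in both seasons. BnaC05g40920D on chromosome C5 (rank 78) had 24 to 77 with a median of 43 in the 28 Lumen silique libraries and 99 to 372 with a median of 167 in the 28 Solar ones. The hybrids did not overlap, and the difference was -2.02 ± 0.09 (SE, limma adjusted p = 1.35e-23). It held in seeds, where Lumen ranged from 32 to 126 and Solar from 128 to 436. BnaA10g10320D on chromosome A10 (rank 40) had a median of 14.5 (3 to 79) in Lumen and 58 (19 to 172) in Solar, a difference of -1.91 ± 0.14 (SE, limma adjusted p = 2.28e-15). Unlike the former gene it was close to absent from seeds, at 0 to 2.

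The 3 genes higher in Lumen differed by less. BnaC06g37610D on chromosome C6 (rank 26) had a median of 43 (13 to 72) in Lumen siliques and 17.5 (6 to 67) in Solar ones, a difference of 0.91 ± 0.13 (SE, limma adjusted p = 1.84e-07). Its seed values were several times higher, with 119 to 369 in Lumen and 29 to 191 in Solar. BnaAnng07790D, the last gene of the list, had 13.5 (8 to 24) in Lumen and 9 (0 to 20) in Solar siliques, a difference of 0.76 ± 0.19 (SE, limma adjusted p = 0.00116) that missed the threshold without replicate 1 (adjusted p = 0.0175) and without replicate 2 (adjusted p = 0.0226). The third, BnaA03g43830D (rank 54), was named after its values were seen and had 35 (10 to 70) against 16.5 (5 to 41), a difference of 0.74 ± 0.10 (SE, limma adjusted p = 3.13e-08).

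The seasons as such split the list. In siliques 18 genes were higher in season 2 and 17 lower, against 7.32% and 7.92% of all genes tested and 10.1% and 16.8% of the 388, and the median change was 0.05 (log2). The number past the threshold fell from 35 to 13 without replicate 1 and to 20 without replicate 2. In seeds 4 of the 75 genes tested were higher in season 2 and 25 lower, against 12.2% and 15.1% of all genes tested and 8.1% and 35.8% of the 358 genes raised in 8 of 8 silique combinations and tested in seeds. The total of 29 became 16 without replicate 2 and 19 without replicate 3.

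In seeds, whose values took no part in the choice of the list, 75 of the 100 genes reached a value of 1 or more in 47% or more of the seed libraries and were tested. Of the 25 others, 24 had a mean value under 1 in seeds and 8 were listed at 0 in all 56 libraries. In siliques 21 of these 25 rose with age and none fell, while of the 75 tested in seeds 40 rose and 6 fell. Among all genes tested in siliques the shares were 17.2% and 17.1%. At the other end, 37 of the 100 had a mean value in seeds at or above that in siliques, though the scaling of the tissues against each other is not known.

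Heat in seeds raised 9 of the 75 genes and lowered 1, while 65 did not pass. The seed libraries did not choose the list, but may share plots with the silique libraries that did. Among all genes tested in seeds 0.999% rose and 0.641% fell, and among the 358 genes raised in 8 of 8 silique combinations and tested in seeds 7.54% rose and 0.559% fell. The median change was 0.06 (log2), against -0.02 over all genes tested and 0.04 over the 358. It was above 0 for 41 of the 75, against 45.5% of all genes tested and 69.8% of the 358. Of the 75 genes, 5 (6.67%) were above 0 in all 8 seed combinations, against 1.02% of all genes tested. The count of 10 depended on the libraries used. It was 2 without replicate 1, 3 without replicate 2, 5 without replicate 3, 11 without replicate 4 and 12 without the pair of libraries that stood apart, and season 1 alone gave 0. The share of all genes called moved too, from 1.64% to 0.222%, 0.307%, 0.674%, 1.33%, 2.37% and 0.0615% in turn. Season 2 alone gave 4, of which 2 were raised and 2 lowered, where 0.843% of all genes were called.

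The largest rise in seeds was that of BnaA02g30740D on chromosome A2 (rank 63), from 0 to 52 with a median of 3 in the 28 control libraries and from 1 to 85 with a median of 4.5 in the 28 heated ones, a change of 0.86 ± 0.18 (SE, limma adjusted p = 0.00296). The treatments overlapped, since the gene was low at 7 DAF in both. At 14 DAF of season 2 they were apart, with controls of 17, 14, 6 and 12 and heated values of 85, 23, 32 and 71 in Lumen, and controls of 2, 2, 6 and 3 and heated values of 9, 19, 29 and 23 in Solar. In Solar at 14 DAF of season 1 the controls of 52, 31 and 33 overlapped the heated values of 39, 60 and 40. The call was lost without replicate 1 (adjusted p = 0.0134), replicate 2 (adjusted p = 0.163) or replicate 4 (adjusted p = 0.0144).

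BnaAnng26270D, on an unplaced part of the A subgenome (rank 49), is the gene of the list that the study places under unfolded protein binding, protein complex oligomerization and response to reactive oxygen species. It had seed values of 15 to 73 with a median of 24 in controls and 18 to 128 with a median of 37.5 under heat. The change was 0.75 ± 0.10 (SE, limma adjusted p = 1.34e-06) and stayed between 0.72 and 0.78 when any replicate number was left out. In Solar at 14 DAF of season 1 the controls read 34, 43 and 26 and the heated libraries 82, 128 and 103, with no overlap. In Lumen at 14 DAF of season 1 the controls read 21, 22 and 19 and the heated libraries 24, 22 and 18, and were not apart. All heated libraries lay above all controls in 4 of the 8 seed combinations and in 4 of the 8 silique combinations. The library with 66990 genes at 0 gave this gene 79, the highest of its condition, and without the pair of libraries that stood apart the change was 0.72.

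**Figure D5:**
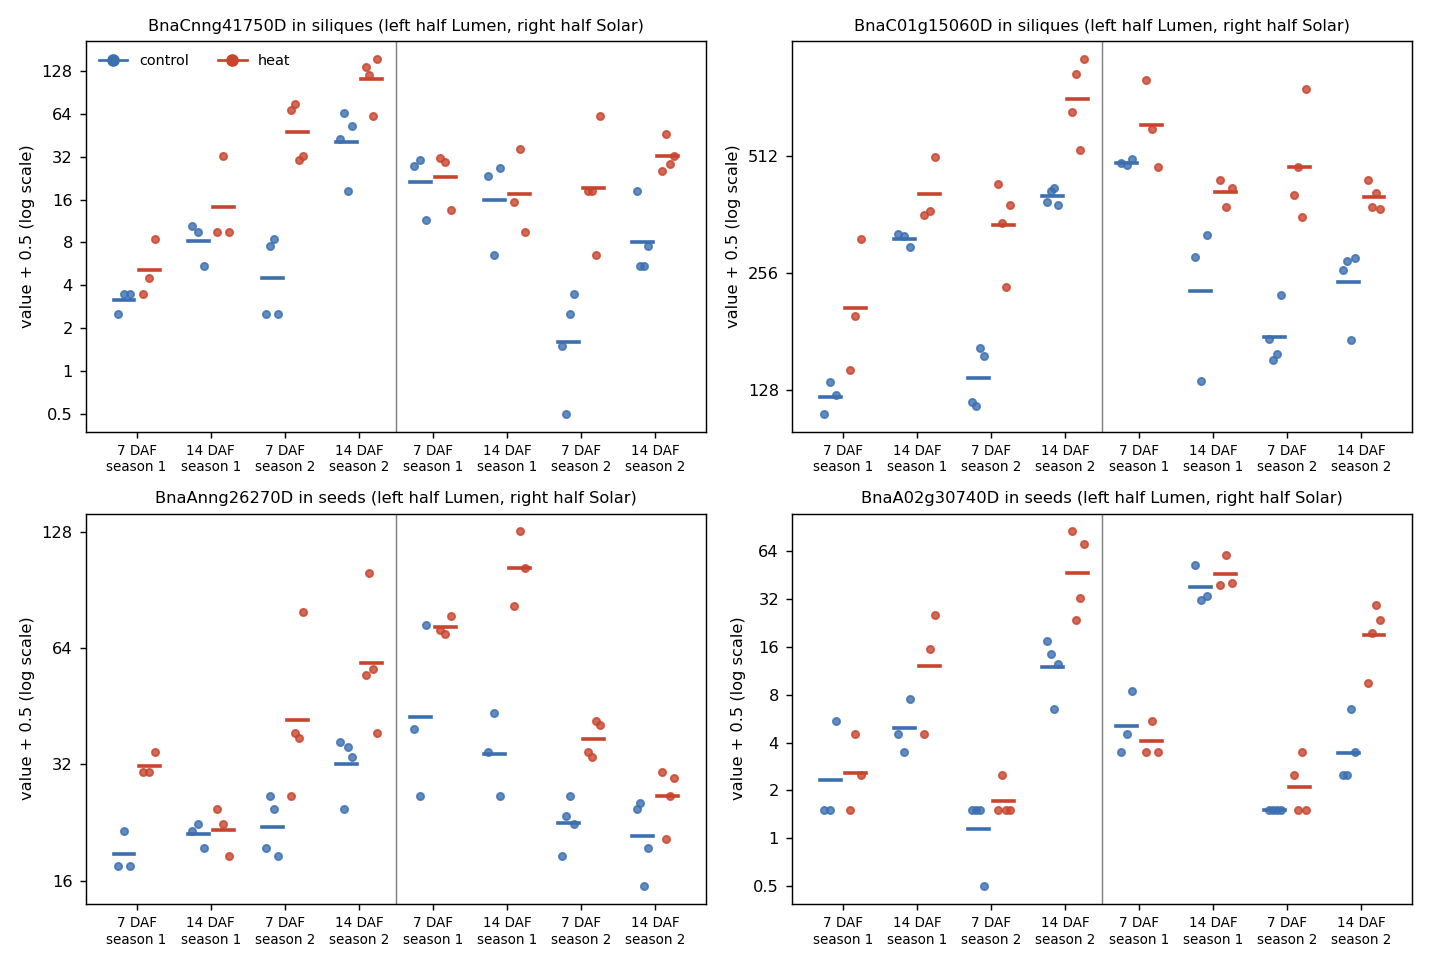
Values plus 0.5 on a log scale in each library of BnaCnng41750D and BnaC01g15060D in siliques and of BnaAnng26270D and BnaA02g30740D in seeds, by condition, with bars at the mean of the log values. BnaAnng26270D is higher under heat in most seed conditions (median 37.5 against 24), and BnaA02g30740D differs mainly at 14 DAF.

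The single gene lowered in seeds was BnaCnng24460D (rank 84), with 17 to 36 and a median of 27.5 in controls and 16 to 29 and a median of 22.5 under heat. The change was -0.23 ± 0.05 (SE, limma adjusted p = 0.00151), small beside the overlap of the treatments, and was lost without replicate 1 (adjusted p = 0.0237), replicate 2 (adjusted p = 0.0656) or replicate 3 (adjusted p = 0.019). In siliques the same gene had medians of 16.5 in controls and 24.5 under heat.

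Split by hybrid, heat raised 2 of the 75 genes in Lumen seeds and 3 in Solar seeds and lowered none in either. Of all genes tested, 0.109% were raised and 0.0469% lowered in Lumen, and 0.201% and 0.0544% in Solar. At an unadjusted p under 0.05 the numbers in either direction were 19 and 21 of the 75, against 11.9% and 10.5% of all genes tested. These genes were named after their values were seen. In Lumen they were BnaA05g30820D (rank 41), with a change of 0.69 ± 0.12 (SE, limma adjusted p = 0.000959), and BnaA09g36810D (rank 91), with 0.74 ± 0.15 (SE, limma adjusted p = 0.00883). BnaA05g30820D had low whole-number values in seeds of both hybrids together, 1 to 5 (median 3) in controls and 2 to 7 (median 4.5) under heat. In Solar they were BnaAnng26270D, with 0.86 ± 0.13, BnaC09g12310D (rank 62), with 0.46 ± 0.07, and BnaA03g57740D, with 0.39 ± 0.08. The difference of the heat effect between the hybrids passed the limma test for none of the 75 (lowest adjusted p = 1, background 0% of all genes tested). At an unadjusted p under 0.05 it passed for 5 of them, against 3.5% of all genes tested. Without the pair of libraries that stood apart 6 genes were raised in Solar, where 0.449% of all genes were called in either direction.

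By sampling time, 2 genes were raised at 7 DAF, BnaAnng26270D and BnaC09g12310D, and none was lowered, against 0.42% and 0.135% of all genes tested, and 25 of the 75 passed an unadjusted p under 0.05 in either direction, against 14.7% of all genes tested. At 14 DAF 8 were raised and 1 was lowered, against 0.941% and 0.502%. The direction of these calls turned in season 2 alone, where 3 genes were raised and 7 lowered at 14 DAF, and in season 1 alone none was called. Of all genes, 2.29% and 0.0112% were called at 14 DAF in these fits. Leaving out the pair of libraries that stood apart gave 7 at 7 DAF and 11 at 14 DAF, in either direction, against 0.787% and 1.9% of all genes. At 14 DAF the number was 2 without replicate 1, 0 without replicate 2, 2 without replicate 3 and 5 without replicate 4. The share of all genes called there went from 1.44% to 0.121%, 0.0636%, 0.581% and 1.06% in turn. The difference of the heat effect between the ages passed for none of the 75 (lowest limma adjusted p = 0.055), against 0.0562% with a larger effect at 14 DAF and 0.0581% with a smaller one among all genes tested. At an unadjusted p under 0.05 it passed for 17 of them, against 12.3% of all genes tested.

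The direction of the list in seeds varied between conditions. The median heat difference of the 75 genes was 0.31 in Solar at 14 DAF of season 1, with 57 genes above 0, and -0.31 in the same hybrid and age in season 2, with 27 above 0. In Lumen at 7 DAF it was 0.26 in season 1 (62 above 0) and -0.11 in season 2 (28 above 0), where the median over all genes tested was itself -0.12 and 1 heated library was the one with 66990 genes at 0. Solar at 7 DAF gave 0.13 and 0.30 in the 2 seasons. Over all genes tested, the shares above 0 were 44.2% and 50.9% in Solar at 14 DAF of seasons 1 and 2. In Lumen at 7 DAF they were 44.3% and 36.9%. The difference of the heat effect between the seasons had a median of -0.27 and passed the limma threshold for none of the 75 (lowest adjusted p = 0.337, background 0%). At an unadjusted p under 0.05 it passed for 21 of them, against 7.51% of all genes tested.

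The course over time was also different in seeds. There 19 of the 75 genes rose from 7 to 14 DAF and 33 fell, against 20.7% and 16.3% of all genes tested and 22.3% and 33.5% of the 358. The median age change was -0.19 (log2). Of the 40 tested genes that rose with age in siliques, 15 rose in seeds and 13 fell. BnaC01g41460D, at rank 6, had 0 to 11 with a median of 0 in seeds at 7 DAF and 3 to 42 with a median of 9.5 at 14 DAF, the largest rise, of 3.50 ± 0.17 (SE, limma adjusted p = 6.53e-21). BnaA02g30740D went from a median of 1 (0 to 8) to one of 18 (2 to 85), a rise of 2.78 ± 0.18 (SE, limma adjusted p = 4.29e-17).

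Among those that fell, BnaA03g36450D on chromosome A3 (rank 73) went from a median of 13.5 (2 to 45) to one of 4 (0 to 17), a change of -1.96 ± 0.19 (SE, limma adjusted p = 8.12e-12). BnaC01g32590D on chromosome C1 (rank 15) went from a median of 37.5 (23 to 62) to one of 10 (0 to 53), a change of -1.86 ± 0.22 (SE, limma adjusted p = 1.16e-09). The ages overlapped in part for both. In siliques the former rose with age by 0.45 ± 0.12 (SE, limma adjusted p = 0.00186), and the latter changed by 0.14 ± 0.13 (SE, limma adjusted p = 0.382).

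Between the hybrids, 36 of the 75 genes were lower in Lumen seeds than in Solar seeds and 8 were higher, against 20% and 16.9% of all genes tested and 26.3% and 21.5% of the 358. The median difference was -0.35, close in size to the -0.40 of the 100 genes in siliques. BnaC01g41460D was among the exceptions to a shared direction. It was lower in Lumen siliques, by -1.09 ± 0.18 (SE, limma adjusted p = 2.02e-06), and higher in Lumen seeds, by 1.52 ± 0.17 (SE, limma adjusted p = 3.61e-10).

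Of the 7 genes with a function term, 3 belonged to protein folding or unfolded protein binding. Besides BnaAnng26270D these were BnaC08g13550D on chromosome C8 (rank 74) and BnaA03g57740D on chromosome A3 (rank 79). BnaC08g13550D had 10 to 23 with a median of 13.5 in control siliques and 11 to 34 with a median of 23.5 in heated ones, and a seed change of 0.12 ± 0.14 (SE, limma adjusted p = 0.724). BnaA03g57740D had 20 to 98 with a median of 31 in control siliques and 24 to 104 with a median of 46.5 in heated ones. In seeds it rose by 0.26 ± 0.06 (SE, limma adjusted p = 0.00293). The study printed its terms for co-expression modules of seeds, which include a module it reports as enriched in protein folding. No share of folding terms among all genes with a printed term is given, so 3 of 7 cannot be read as an excess.

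The other 4 terms covered metabolism and ATP use. BnaA03g46430D (rank 55), under trehalose catabolic process, the breakdown of a sugar, had a median of 8 in control and 12.5 in heated siliques. Its means of 12.9 ± 12.1 (SD, n = 28) and 21.2 ± 23.3 (SD, n = 28) lay closer than the spread of the libraries. That spread takes in both hybrids, ages and seasons. With age the gene rose in siliques by 1.68 ± 0.16 (SE, limma adjusted p = 2.78e-11). It fell with age in seeds by 0.87. BnaA05g05840D (rank 83), under ATP hydrolysis activity, had 45 (15 to 151) in control and 53.5 (25 to 217) in heated siliques. In seeds it rose under heat by 0.38 ± 0.07 (SE, limma adjusted p = 0.000735). BnaC01g15060D, under vitamin binding, was among the more abundant, with 267 (111 to 501) in control and 416.5 (144 to 906) in heated siliques and all heated libraries above all controls in 7 of the 8 combinations. BnaC06g18870D had 121.5 (42 to 302) in control and 227.5 (70 to 408) in heated siliques but 1 to 16 in seeds.

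The wider set of folding genes gave a frame for these few. The study's table prints 160 genes under its 7 folding and chaperone terms, a list that the study chose on seed libraries of this series, that is printed in part, and that was added here after the data had been seen. It is therefore not independent evidence of a direction. All 160 were tested in both tissues. In siliques heat raised 36 of them (22.5%) and lowered 5, against 2.19% and 2.9% of all genes tested, and in seeds it raised 28 (17.5%) and lowered none, against 0.999% and 0.641%. The median change was 0.10 in siliques and 0.05 in seeds (log2). Of these 160, 3 were among the 100.

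By their identifiers, 51 of the 100 genes lie on the A subgenome and 49 on the C subgenome, with 15 on unplaced parts, against 49.2%, 50.8% and 11.9% of the 388. Of all genes tested these shares were 46.9%, 52.8% and 10.6%. Chromosome A3 held 9, and A6 and C6 held 8 each. These chromosomes held 6.53%, 4.66% and 4.23% of all genes tested, and 7.99%, 5.67% and 4.9% of the 388. A total of 5 pairs had identifier numbers within 100 of each other on the same chromosome or unplaced part. One of them joined BnaAnng26270D to the gene at rank 90. Pseudoalignment can share reads between near-identical A and C copies of a gene, which makes the values of such genes uncertain.

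Members varied together to different degrees. Across the 56 silique libraries, the level of a gene correlated with the mean of the other 99 with a median r of 0.706 (-0.05 to 0.894), and once the condition means were removed with a median r of 0.436. These values are descriptions across libraries that share conditions and scaling. The closest pair after removal of the condition means was formed by the genes at ranks 12 and 18, on chromosomes A6 and C6, with r = 0.923. The next were the genes at ranks 48 and 54, on chromosomes C7 and A3, with r = 0.886, those at ranks 4 and 34, on chromosomes A3 and C3, with r = 0.870, and those at ranks 30 and 31, on chromosome C2 and an unplaced part of the A subgenome, with r = 0.862.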

How the data were processed

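The authors pseudoaligned stranded total RNA reads to annotated rapeseed transcripts with kallisto 0.46 and tested with sleuth, per the labels and methods. The deposited values are whole numbers per gene, used here as a score: their scaling is not stated, they resemble TPM, and depth cannot be read from them. Each of the 112 libraries was assigned from its labels.

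Values were transformed to log2(value + 0.5). In each tissue, genes reaching a value of 1 in 47% of libraries or more (54752 in siliques, 53350 in seeds) were fitted with limma 3.58.1 in R 4.3.3, with genotype, heat, time, season and all interactions in sum-to-zero coding and a variance trend. Benjamini-Hochberg adjusted p under 0.01 counted as past the threshold. The code was tested on simulated data. Tables and figures were made with Python 3.11.15, pandas 2.3.3, numpy 2.4.6, matplotlib 3.10.9 and data.table (1.17.8).

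The members and lists were chosen with earlier results of these data known. Genes named were the first 2 of the list, the 2 largest called changes in each direction for heat in seeds, time in each tissue and genotype in siliques, and those with a term in the study's table. Others are marked in the text. Identifiers could not be paired with gene names (3347 matched a RefSeq symbol that repeats the identifier, 4 of them members), and no sequence or coordinate is given. Alternatives were other pseudocounts, filters, scaling, thresholds and models, a replicate block, single seasons, replicates left out, and seeds without the pair of libraries that stood apart.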

Additional observations from a re-analysis of the deposited data

Results flagged for a closer look

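A pair of results stood out because an effect differed between groups by a test of the difference itself. The change from 7 to 14 DAF in siliques differed between Lumen and Solar for 25 of the 100 genes by limma's interaction test, 24 of them with the larger change in Lumen. Of these 25, 24 had a change above 0 in Lumen and 10 had a change below 0 in Solar. The difference between Lumen and Solar in siliques changed between the seasons for 45 genes, a comparison added after the data had been seen, and 44 of the 45 were lower in Lumen in season 1.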

How the results depend on the processing

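Of the 100 genes, 63 were chosen again with a minimum mean value of 5 in the rule, 64 with a minimum of 20, and 52 to 78 when a replicate number was left out. For heat in seeds the count of 10 became 2 with main effects only, 0 in season 1 alone, 4 (2 raised, 2 lowered) in season 2 alone and 16 at an adjusted p under 0.05, and 2 to 11 with a replicate left out. The share of all genes called went from 1.64% to 0.296%, 0.0615%, 0.843% and 4.44% in turn. It was 0.222% to 1.33% with a replicate left out. In Lumen seeds the count of 2 became 0 in either season alone and 0 to 2 with a replicate left out. Of all genes, 0.156% were called in the main fit and 0.00372% and 0.0589% in seasons 1 and 2 alone. With a replicate left out 0.0168% to 0.138% were. In Solar seeds the count of 3 became 6 with a pseudocount of 5, 5 with a minimum value of 5, 0 in season 2 alone, 6 without the pair of libraries that stood apart, 7 at an adjusted p under 0.05 and 0 to 4 with a replicate left out. The share of all genes went from 0.255% to 0.366%, 0.424%, 0.137%, 0.449% and 0.767% in turn, and to 0.015% to 0.241%. At 7 DAF the count of 2 became 4 with a pseudocount of 5, 4 with a minimum value of 5, 0 in either season alone, 7 without the pair of libraries, 7 at an adjusted p under 0.05 and 0 to 3 with a replicate left out. Of all genes 0.555% were called in the main fit, then 0.688%, 1.15%, 0.00186% and 0.0722% (seasons 1 and 2), 0.787% and 1.76%. With a replicate left out the share was 0.0447% to 0.328%. At 14 DAF the count of 9 (8 raised, 1 lowered) became 0 in season 1 alone, 10 (3 raised, 7 lowered) in season 2 alone, 14 (9 raised, 5 lowered) at an adjusted p under 0.05 and 0 to 5 with a replicate left out. The share of all genes went from 1.44% to 0.0112%, 2.29% and 3.53% in turn, and to 0.0636% to 1.06%. Heat by time in seeds went from 0 to 1 with a pseudocount of 5, without a filter on low values and in season 2 alone, and was 0 to 1 with a replicate left out.

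In siliques, time gave 30 genes in place of 67 in season 1 alone and 58 to 66 with a replicate left out. Genotype gave 32 in place of 55 in season 2 alone and 47 to 53 with a replicate left out. Genotype by time gave 9 in place of 25 in each season alone and 6 to 22 with a replicate left out, genotype by season 20 to 44 in place of 45, and season 17 in place of 35 with main effects only and 13 to 26 with a replicate left out. In seeds, season gave 44 in place of 29 at an adjusted p under 0.05 and 16 to 31 with a replicate left out. The cause of these shifts was not tested. For the named genes 166 of 184 values under alternatives kept their direction and side of the threshold, 18 kept the direction alone and 0 reversed.

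Groups share replicate numbers in the labels, which do not say that a number marks a block. Deviations from the condition means did not go together by number (median r of same-numbered libraries 0.013 and 0.016 in siliques and -0.018 and 0.017 in seeds), so no pairing was assumed. With a replicate block the count for heat in Solar seeds was 5 in place of 3, with 1 lowered in place of 0, and the lowered genes were 2 in place of 1 for heat in seeds and 2 in place of 1 at 14 DAF. The other totals stayed within 1.5 times. The model with main effects only has no interaction or within-group terms, and season and its interactions have no value in a single season, so these were not run. Rescaling by median ratios changed libraries by factors of 0.997 to 1.00 and says nothing about other scalings. Values are rounded to whole numbers, which limits the genes with the lowest values most.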
